A study of Canis lupus familiaris with 24 samples.

Results

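The transcripts described here are those of *Glut2* (SLC2A2), *Glp1r* (GLP1R) and *Epac2* (RAPGEF4), the genes of glucose and incretin sensing among those measured by RT-qPCR in insulin-producing cells (IPCs) derived from canine adipose tissue mesenchymal stem cells (cAD-MSCs). They were chosen by their role, although earlier results of these data were known, and are 3 of 26 genes in all and 3 of the 13 genes measured on day 13. They were not measured on day 3 or on day 8. The 24 samples formed 6 groups of 4, and the 8 samples of day 13 are used here, with 24 Ct values for the 3 genes.

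Both groups of day 13 came from 4 cell lines, each isolated from the abdominal fat of a different dog and used at low passage. The number in a sample's title is taken here as its line. That a control and an IPC sample of equal number came from the same dog is an assumption. The undifferentiated control was cAD-MSCs kept in DMEM. The IPCs had gone through 3 steps in 13 days. For the first 3 days the cells received Chir99021 followed by Activin A. In the next 5 days the additives, divided over successive media, were retinoic acid, FGF2, EGF, dorsomorphin, DAPT, nicotinamide, taurine and a TGFβ inhibitor. The last 5 days used forskolin, Glp-1, nicotinamide, taurine, a PI3K inhibitor and a TGFβ inhibitor. By the study's methods the IPCs grew as colonies in serum-free medium, held in alginate for the last 5 days. The methods describe undifferentiated cAD-MSCs as an attached culture with serum and give no separate account of the day 13 control. The additives, the colony form, the alginate and the serum thus cannot be told apart in this comparison. The labels name no alginate. The control cells were not given the additives.

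Glut2 is a facilitative glucose transporter of low affinity through which glucose enters the β cell, and it is also a main glucose transporter of liver cells. Glp1r is the G protein-coupled receptor of the incretin hormone GLP-1, and its stimulation raises cAMP in β cells. Epac2 is an exchange factor for the small GTPase Rap that binds cAMP and acts beside protein kinase A in the amplification of insulin secretion. The medium of the last step held Glp-1, the ligand of Glp1r, and forskolin, an activator of the enzyme that makes cAMP.

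Ct is the PCR cycle at which fluorescence crosses the detection threshold, so a later Ct means less template in the reaction, and at full efficiency each cycle stands for a factor of 2. *Epac2* was the most readily detected of the 3 in both groups. Its Ct in the control was 24.41, 24.89, 24.64 and 24.48 in lines 1, 2, 3 and 4. In the IPCs it was 28.97, 29.69, 29.81 and 29.09 in the same order. Every IPC sample crossed the threshold later than every control sample. The mean moved from 24.6 ± 0.213 (SD, n = 4) to 29.4 ± 0.421, a shift of 4.79 cycles, the largest later shift among the 13 genes of day 13 (exact two-sided Mann-Whitney p = 0.0286, Benjamini-Hochberg adjusted 0.0413 over 13 genes). No smaller p can come from 4 samples against 4, and it needs groups that are fully apart. The shift was of similar size in the 4 lines, between 4.56 and 5.17 cycles.

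*Glp1r* was detected in the middle of the range. The control Ct was 32.33, 31.97, 31.26 and 32.14 in lines 1, 2, 3 and 4. The IPC Ct was 33.58, 33.40, 33.20 and 33.23. The groups did not overlap, although control line 3 stood earlier than the other controls. The mean shifted later by 1.43 cycles, from 31.9 ± 0.467 to 33.4 ± 0.175 (SD, n = 4 each, exact Mann-Whitney p = 0.0286, adjusted 0.0413). Within lines the shift ranged from 1.09 to 1.94 cycles.

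*Glut2* was detected late in both groups. Its Ct in the control was 37.38, 37.38, 37.15 and 37.65 in lines 1, 2, 3 and 4, with lines 1 and 2 equal to the last decimal given. In control lines 1, 2 and 3 the decimals equalled those of the *Glis3* Ct (35.38, 35.38 and 36.15), and in line 4 (36.15) they did not. In the IPCs it was 38.93, 38.84, 38.29 and 38.32. The groups again did not overlap, and the latest control preceded the earliest IPC sample by 0.64 cycles. The mean moved from 37.4 ± 0.204 to 38.6 ± 0.337 (SD, n = 4 each, exact Mann-Whitney p = 0.0286, adjusted 0.0413), a shift of 1.21 cycles that ranged from 0.67 to 1.55 within lines. The run was of 45 cycles by the labels, and the highest Ct listed for any gene was 40. None of the 8 *Glut2* values lay within 0.1 cycles of that value, and the latest preceded it by 1.07 cycles. The number of wells behind a Ct and the PCR efficiencies were not given in the sources used here, and at such a late Ct a well holds few template molecules.

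**Figure D1:**
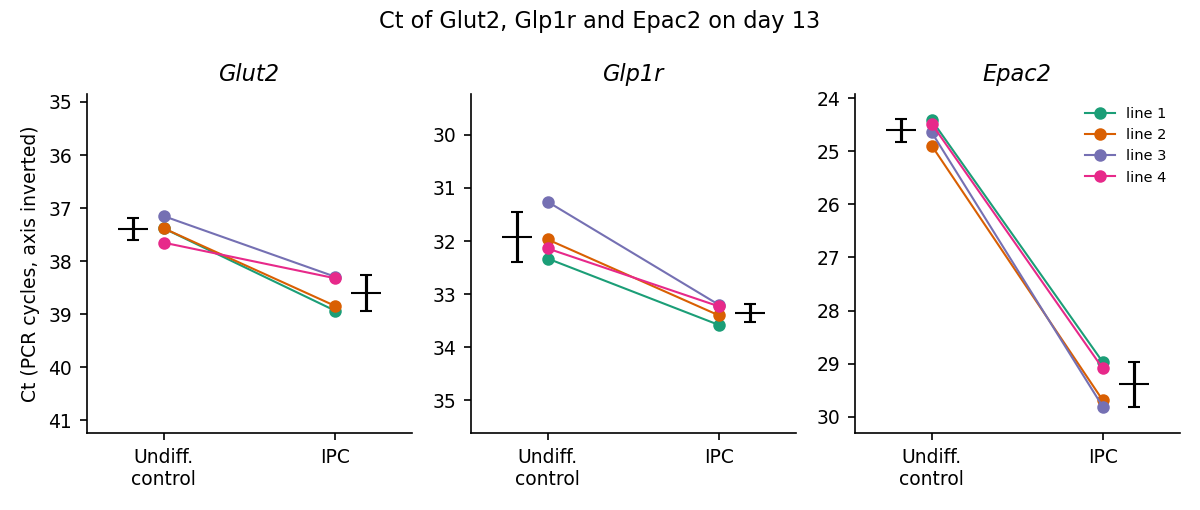
Ct of *Glut2*, *Glp1r* and *Epac2* in PCR cycles on day 13, with the axis inverted so that more template is higher; points are samples, coloured lines join the control and the IPCs of a cell line, and black bars give the mean ± SD of 4 samples. All 4 lines ran downward for each gene, by 4.56 to 5.17 cycles for *Epac2* and by under 2 cycles for the others.

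By Ct alone all 3 genes had less template in the IPC reactions. They were among the 6 of the 13 genes of day 13 (46.2%) with a later Ct and no overlap, which held for 3 of the 10 other genes. With no reference gene, the IPC level was 0.439 ± 0.101 of the control mean for *Glut2*, 0.358 ± 0.0424 for *Glp1r* and 0.0371 ± 0.0106 for *Epac2* (SD, n = 4). The amount of RNA in each reaction was not given in the sources used here, so less input RNA and fewer transcripts per input cannot be told apart on this scale. In bulk cultures, fewer cells with a transcript and less of it per cell cannot be told apart either.

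The deposited ratio sets each transcript against *Gapdh*, a glycolysis enzyme used as the reference gene. For relative mRNA expression, each ratio was scaled so that the 4 undifferentiated controls of day 13 average 1. On this scale the direction of all 3 genes turned. *Glut2* was higher in the IPCs without overlap, and is among the 11 of the 13 genes of day 13 (84.6%) for which this held. *Glp1r* and *Epac2* had higher means in the IPCs with groups that overlapped.

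The ratio of *Glut2* was 33.2, 36.3, 35.1 and 39.3 transcripts per 1000000 of *Gapdh*, at full PCR efficiency, in control lines 1, 2, 3 and 4. In the IPCs it was 54.5, 55.8, 68.4 and 53.7 on the same scale. As relative expression, the controls lay at 0.923, 1.01, 0.976 and 1.09 and the IPCs at 1.51, 1.55, 1.90 and 1.49. Every IPC sample exceeded every control, and line 3 stood above the other IPCs. The mean was 1.62 ± 0.192 against 1.00 ± 0.0711 (SD, n = 4 each, exact two-sided Mann-Whitney p = 0.0286, adjusted 0.0338 over 13 genes). The 16 ratios of an IPC to a control sample ran from 1.37 to 2.06, which is an exact 97.1% interval for the fold change. With the *Gapdh* values that accompany the other genes of day 13, described further on, the same *Glut2* Ct values gave 14.9 to 22.1 in place of 1.62.

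For *Glp1r* the relative expression of the controls was 0.672, 0.949, 1.28 and 1.10 in lines 1, 2, 3 and 4. The IPCs reached 1.36, 1.49, 1.42 and 1.12. The lowest IPC, line 4, lay below control line 3, and this was the sole overlap, with 15 of the 16 IPC to control ratios above 1. The mean was 1.35 ± 0.160 against 1.00 ± 0.258 (SD, n = 4 each), which did not pass the test (exact Mann-Whitney p = 0.0571, adjusted 0.0619), and the interval of the fold change ran from 0.876 to 2.22. Each line was higher in the IPCs, by factors of 2.02, 1.57, 1.11 and 1.02, so the change in line 4 was small. The overlap was gone without line 3 (mean 1.46), without line 4 (1.47), without control line 3 (1.49) or without IPC line 4 (1.42). Each of these settings leaves out a sample of that sole overlap, so it had to go. None of them passed the test (exact Mann-Whitney p = 0.1 without a line, 0.0571 without a single sample). With the *Gapdh* values of the other genes of day 13, the same *Glp1r* Ct values gave 11.9 to 17.9 in place of 1.35 and the groups did not overlap (exact Mann-Whitney p = 0.0286), so the interval above holds for its own reference.

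*Epac2* varied most between the IPC lines. Its relative expression was 1.22, 0.804, 0.977 and 0.994 in control lines 1, 2, 3 and 4. The IPCs were at 1.69, 0.948, 1.08 and 1.55. IPC lines 2 and 3 lay within the range of the controls. The mean of 1.32 ± 0.360 against 1.00 ± 0.172 did not pass the test (SD, n = 4 each, exact Mann-Whitney p = 0.343, adjusted 0.343), and the interval of the fold change, 0.775 to 2.10, holds both a decrease and an increase. Within lines the factors were 1.38, 1.18, 1.10 and 1.56.

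**Figure D2:**
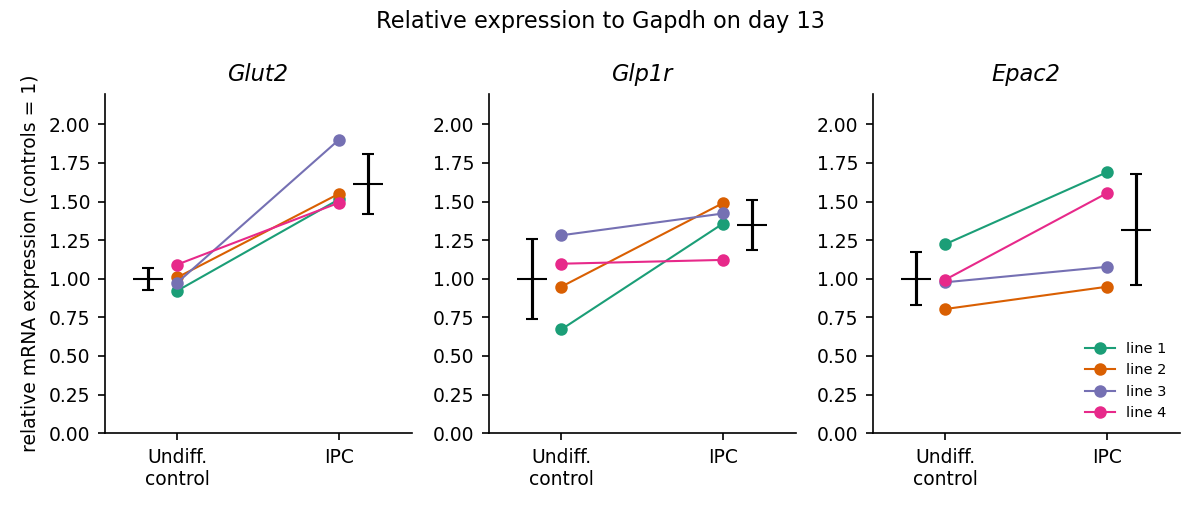
Relative mRNA expression to *Gapdh* of *Glut2*, *Glp1r* and *Epac2* on day 13, on a linear axis from 0 with the control mean at 1; points are samples, coloured lines join the samples of a cell line, and black bars give the mean ± SD of 4 samples. The *Glut2* groups are apart, at 0.923 to 1.09 and 1.49 to 1.90, whereas those of *Glp1r* and *Epac2* overlap.

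Over all, 11 of the 13 genes of day 13 (84.6%) were higher in the IPCs without overlap on the same scale, namely *Glut2* and 10 of the 10 other genes, and 13 of 13 were higher in all 4 lines. *Glut2*, *Glp1r* and *Epac2* ranked 11, 12 and 13 of 13 by fold change, with a median of 1.35 against 27.2 over all genes. These ranks of *Glut2* and *Glp1r* hold with their own *Gapdh* values. With the median *Gapdh* Ct of all genes in each sample they were 15.6-fold and 12.5-fold and ranked 8 and 9, as they also did by Ct alone, while *Epac2* ranked 13 on each scale. The 2 hormones, *Insulin* and *Glucagon*, both rose (27.2-fold and 3.32-fold). The 5 progenitor factors *Ngn3*, *NeuroD1*, *Nkx2.2*, *Isl1* and *Nkx6.1* all rose, by 3.26-fold to 954-fold. The 3 maturation factors *MafA*, *Glis3* and *Rfx6* all rose as well, by 39.5-fold to 284-fold. *Glp1r* and *Epac2* were the genes of day 13 that did not pass this test with the deposited ratios.

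By Ct the same lists split, as did all 13 genes of day 13, of which 3 came earlier, 6 came later and 4 overlapped. Of the hormones, *Glucagon* came later and *Insulin* overlapped. Of the progenitor factors 1 came earlier, 2 later and 2 overlapped, and of the maturation factors 2 came earlier and 1 overlapped. Of 5 β cell markers, namely *Insulin*, *MafA*, *Nkx6.1*, *Glut2* and *Glp1r*, 4 were higher relative to *Gapdh* and 1 overlapped, beside 11 and 2 of all 13 genes. By Ct 1 of the 5 came earlier, 3 came later and 1 overlapped, beside 3, 6 and 4 of all 13 genes. With so few genes, these counts do not set the β cell markers apart from the rest. The β cell markers *Insulin* and *Glut2* both had a mean Ct above 35 in the IPCs.

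**Figure D3:**
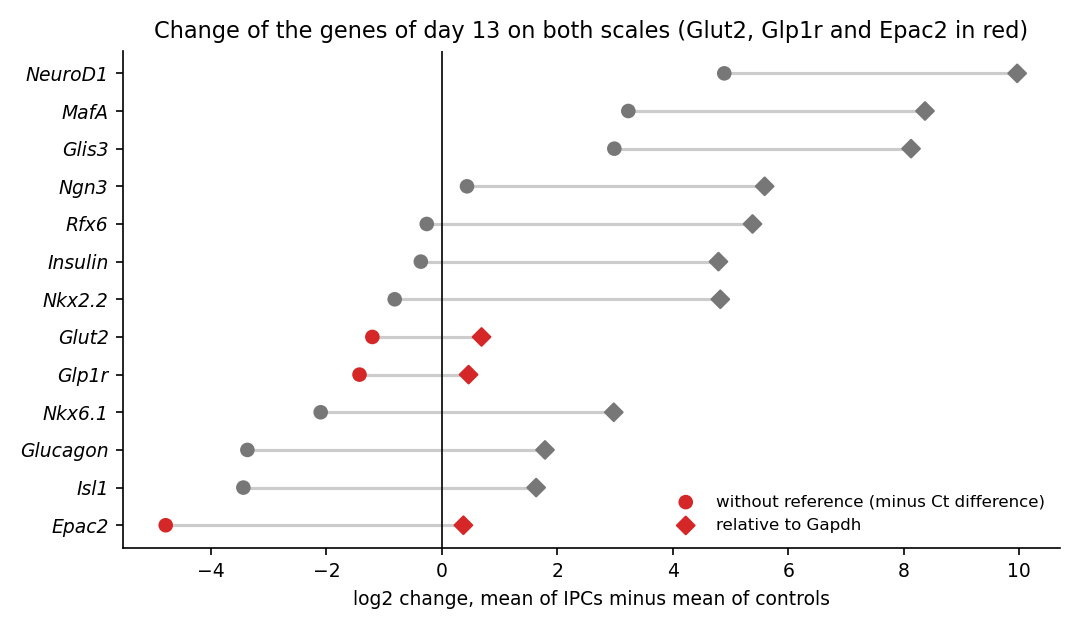
Log2 change from control to IPC of the 13 genes of day 13, from the Ct alone (circles) and relative to *Gapdh* (diamonds, from geometric means), with *Glut2*, *Glp1r* and *Epac2* in red. The 3 red genes lie below 0 by Ct and above 0 relative to *Gapdh*, and their diamonds are the lowest of the 13, a place that *Glut2* and *Glp1r* hold with their own *Gapdh* values but not with the median *Gapdh* Ct of all genes (15.6-fold and 12.5-fold, ranks 8 and 9).

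The *Gapdh* Ct behind a ratio can be worked back from that ratio and the Ct of its gene. Within a tolerance of 0.1 cycles the 13 genes of day 13 fell into 5 sets, each with its own *Gapdh* values in the 8 samples. *Epac2* shared its values with *Ngn3*, *Insulin* and *Glucagon*. In this set *Gapdh* moved from 22.0 ± 0.0921 in the control to 27.2 ± 0.125 in the IPCs (SD, n = 4 each, exact Mann-Whitney p = 0.0286), 5.16 cycles later. *Glut2* and *Glp1r* formed a set of their own. There *Gapdh* moved from 22.6 ± 0.283 to 24.5 ± 0.288 (exact Mann-Whitney p = 0.0286), 1.89 cycles later. In the other 3 sets the shift was 5.08, 5.14 and 5.64 cycles, so the reference of *Glut2* and *Glp1r* shifted by 1.89 cycles where that of the other 11 genes shifted by more than 5.

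In log2 units, the change relative to *Gapdh* is the shift of *Gapdh* less that of the gene. For *Epac2* the shifts of 5.16 and 4.79 cycles left 0.37. For *Glut2* 1.89 and 1.21 cycles left 0.69. For *Glp1r* 1.89 and 1.43 cycles left 0.46. The references of *Glut2* and *Glp1r*, and that of *Epac2*, thus moved further than the genes themselves.

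**Figure D4:**
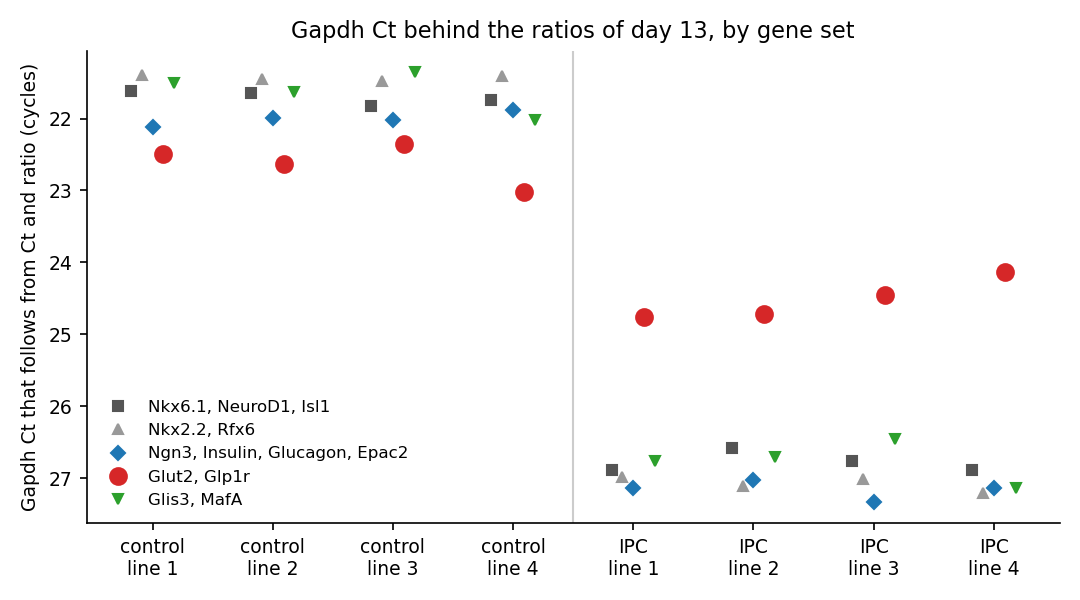
*Gapdh* Ct in PCR cycles that follows from the deposited Ct and ratio, for the 5 sets of genes of day 13 that share it, in control and IPC samples. The values behind *Glut2* and *Glp1r*, drawn as large red circles, lie at 22.4 to 23.0 in the control and at 24.1 to 24.8 in the IPCs, where the other sets lie between 26.5 and 27.3.

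The *Gapdh* values of *Glut2* and *Glp1r* also stood at whole-cycle distances from those of *Glis3* and *MafA*. They were 1 cycle later in all 4 controls, 2 cycles earlier in IPC lines 1, 2 and 3, and 3 cycles earlier in IPC line 4. All 8 differences were whole within 0.05 cycles, the largest distance from a whole number being 0.00256 cycles. No other pair of sets gave more than 1 of 8 such differences. The Ct values of *Glut2* and *Glis3* also shared their decimals in control lines 1, 2 and 3, and in control line 3 both genes had the ratio 3.51e-05. What made these distances and shared values was not tested.

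The choice of *Gapdh* values set the size of the change for all 3 genes. With the values of the *Nkx6.1*, *NeuroD1* and *Isl1* set, *Glut2* was 14.9-fold and *Glp1r* 11.9-fold of the control. With those of *Nkx2.2* and *Rfx6* they were 22.1-fold and 17.9-fold. The values behind *Epac2* gave 15.8-fold and 12.9-fold, and those of *Glis3* and *MafA* 15.9-fold and 13.0-fold. *Glp1r* did not overlap under any of these 4 references (exact Mann-Whitney p = 0.0286). For *Epac2* the first set gave 1.28-fold, *Nkx2.2* and *Rfx6* 1.87-fold without overlap, and *Glis3* and *MafA* 1.34-fold. The reference of *Glut2* and *Glp1r* put *Epac2* at 0.137 of the control, also without overlap. These references were set side by side after the values had been seen.

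**Figure D5:**
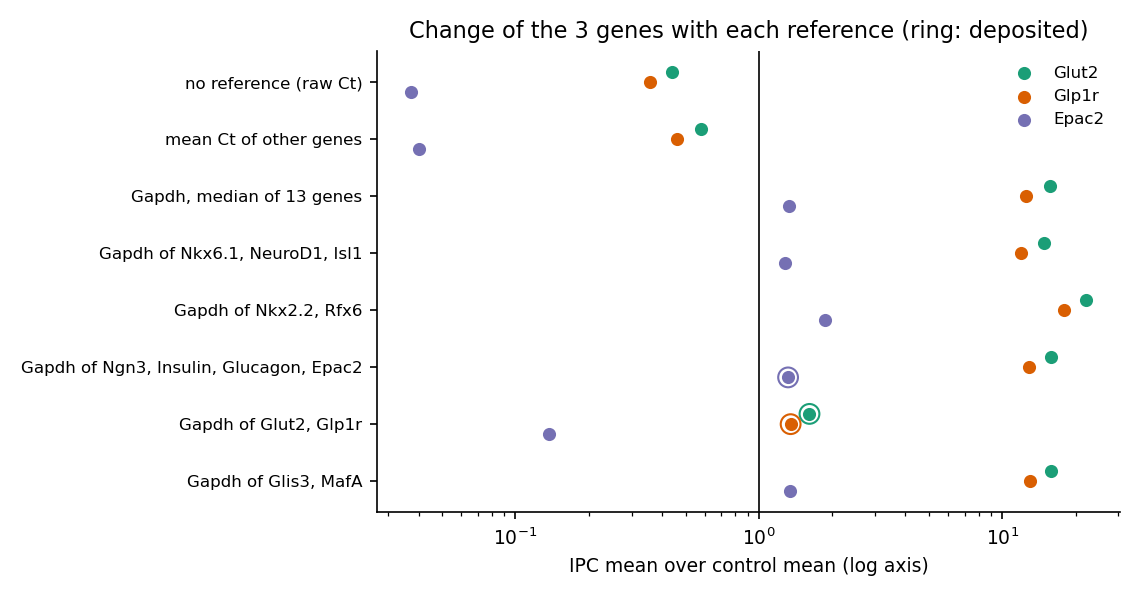
Change of *Glut2*, *Glp1r* and *Epac2* from control to IPC on a log axis (mean IPC level over mean control level) with each of the 5 sets of *Gapdh* values, rings marking the reference that the deposited ratio of that gene used. Among the 5 sets, *Glut2* lies at 1.61 with the mean *Gapdh* Ct of its own set (1.62 from the deposited ratio) and at 14.9 to 22.1 with the others. *Epac2* lies there at 1.28 to 1.87 except for 0.137 with that of *Glut2* and *Glp1r*. With no reference gene and with the mean Ct of the other genes, *Glut2* (0.439 and 0.576), *Glp1r* (0.358 and 0.461) and *Epac2* (0.0371 and 0.0403) all lie below 1.

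The difference between the Ct of a pair of these genes within a sample uses no reference gene, and it is free of the input only where both were read from equal amounts of the same template. *Glut2* and *Glp1r* share their *Gapdh* values, whereas those of *Epac2* differ from theirs, so whether its template was the same is not known. The Ct of *Glp1r* minus that of *Glut2* was -5.05, -5.41, -5.89 and -5.51 in control lines 1, 2, 3 and 4. In the IPCs it was -5.35, -5.44, -5.09 and -5.09. The groups overlapped, and the shift of 0.22 cycles did not pass the test (exact Mann-Whitney p = 0.486, interval from -0.39 to 0.80). The interval allows a change of up to 0.80 cycles between receptor and transporter.

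The Ct of *Epac2* moved later than that of both. Its Ct minus that of *Glut2* was -12.97, -12.49, -12.51 and -13.17 in the controls and -9.96, -9.15, -8.48 and -9.23 in the IPCs. The group means lay 3.58 cycles apart, which would be 12.0-fold less *Epac2* per *Glut2* at equal template (exact Mann-Whitney p = 0.0286, adjusted 0.0429 over the 3 pairs, interval 2.53 to 4.69). Against *Glp1r* the difference went from -7.92, -7.08, -6.62 and -7.66 to -4.61, -3.71, -3.39 and -4.14. Here the shift was 3.36 cycles, or 10.2-fold at equal template (exact Mann-Whitney p = 0.0286, adjusted 0.0429, interval 2.01 to 4.53). In neither comparison did the groups overlap. The *Gapdh* Ct of *Epac2* also moved later, by 3.27 cycles, than that of *Glut2* and *Glp1r*. With the *Gapdh* Ct of each gene taken off first, a setting added after the values had been seen, shifts of 0.31 cycles against *Glut2* (interval -0.49 to 1.23) and 0.09 cycles against *Glp1r* (interval -0.86 to 1.52) were left, and neither passed the test (exact Mann-Whitney p = 0.686 for both). Whether *Epac2* changed relative to the other genes thus depends on which *Gapdh* values hold.

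Over the 8 samples, the genes whose log2 relative expression was most like that of *Glut2* were *Glp1r* (root mean square difference 0.31) and *Epac2* (0.43). For *Glp1r* and *Epac2* the nearest were likewise the other members of the trio, 0.49 apart from each other. *Isl1* came next for each, at 0.74 from *Glut2* and 0.99 from *Glp1r* and from *Epac2*, followed by *Glucagon*, at 0.80 from *Glut2*. The points share cell lines, and *Glut2* and *Glp1r* share their *Gapdh* values. The controls of every gene average 1 on this scale, so the distances largely follow the fold changes, which were lowest for the trio. They restate those ranks and do not show that the genes vary together. These distances hold with the own *Gapdh* values of each gene. With the median *Gapdh* Ct of all genes, *Epac2* was 1.33-fold of the control where *Glut2* and *Glp1r* were 15.6-fold and 12.5-fold. By the shift in Ct, *Glut2* and *Glp1r* were still nearest to each other (0.22 cycles apart), and *Nkx2.2*, a transcription factor of endocrine progenitors, was next (0.39 cycles from *Glut2* and 0.61 from *Glp1r*). *Epac2* was then nearest to *Isl1* (1.35 cycles) and *Glucagon* (1.42 cycles).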

How the data were processed

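RNA was extracted with TRIzol and a spin column, reverse transcribed and measured by SYBR Green RT-qPCR with *Gapdh* as the reference gene, per the labels and the study's methods. Per gene and sample, the authors deposited a Ct to 2 decimals and a ratio to *Gapdh* (2 to the power of minus the Ct difference) to 7 decimals. A further deposited table holds the authors' own fold changes and was not used. No primer, protein or genome sequence is shown. All 3 genes matched a dog gene symbol in RefSeq (assembly UU_Cfam_GSD_1.0). The genes and lists were chosen with earlier results of these data known. Named were the 3 genes, the 2 nearest genes to each by relative expression and by Ct shift, and the lists by counts and ranges.

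Relative expression was computed from the deposited ratio, and the *Gapdh* Ct as Ct plus log2 of the ratio. Groups of 4 were compared by an exact Mann-Whitney U test (two-sided, all splits enumerated), the test the methods name, and a gene was called where the groups did not overlap. The shift between groups was given with the range of the 16 pairwise values. Samples were paired as lines by the number in their titles, which do not say that equal numbers mean 1 dog. Deviations from the group means correlated between -0.125 and 0.535 over the 13 genes for equal numbers. For unlike numbers they correlated between -0.467 and 0.379, so these values do not settle the pairing. The line as a block was an alternative, as were other references, limma 3.58.1 in R 4.3.3, geometric means, a late-Ct filter at 35 and leaving out lines or samples. Python 3.11.15 was used, and the tests were tested on simulated data. The 4 lines per group set the precision. Wells are unknown, so no counting interval was given.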

Additional observations from a re-analysis of the deposited data

Results flagged for a closer look

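The relative expression of *Glut2* in IPC line 3, 1.90, stood apart from the other 3 IPC samples, with a gap to the nearest of them of 0.857 of the range of the group, above the critical value of Dixon's test for 4 samples. It was 1 of 22 groups of 4 values examined to stand out, and chance alone gives about 1 in 20. Without line 3 the *Glut2* mean was 1.51 and the groups did not overlap. The *Glut2* Ct of the same IPC samples had no such gap (0.0469 and 0.141 of the range at its ends). By Ct, IPC lines 3 and 4 were close, at 38.29 and 38.32, so line 3 stood apart after division by *Gapdh* only. What set it apart was not tested.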

How the results depend on the processing

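With no reference gene, the level in the IPCs was 0.439 of the control for *Glut2*, 0.358 for *Glp1r* and 0.0371 for *Epac2*, and with the average Ct of all other genes as reference it was 0.576, 0.461 and 0.0403. Both turned the direction, and the count of 11 genes higher and 0 lower became 3 and 6. With the *Gapdh* values of *Glut2*, *Epac2* was at 0.137. *Glp1r* passed the test with the median *Gapdh* Ct of all genes (12.5), the *Gapdh* values of *Epac2* (12.9) and, added after the data were seen, those of the other sets (11.9, 17.9 and 13.0), and *Epac2* passed with those of *Nkx2.2* and *Rfx6* (1.87). With the line as a replicate block, by differences within lines, *Glp1r* (1.43) and *Epac2* (1.31) were higher in 4 of 4 lines. The exact sign-flip test of 4 pairs cannot go below p = 0.125, and limma with the block changed no call. Without a line or a single sample the mean of *Glp1r* ranged from 1.21 to 1.49, that of *Epac2* from 1.19 to 1.44 and that of *Glut2* from 1.51 to 1.71. The filter on late Ct removed 3 genes, *Glut2* among them, which then had no value. With the *Gapdh* Ct of each gene taken off first, also added after the data were seen, the shift of *Epac2* against *Glut2* (0.31 cycles) and against *Glp1r* (0.0899 cycles) no longer passed. Otherwise the shifts of *Gapdh* and of the pairs of genes kept their direction and side of the threshold in the alternatives run. A call here means groups without overlap, since the exact test of 3 samples against 3 cannot go below p = 0.1. The cause of these changes was not tested. 1 Ct per gene and sample limits what can be said of the late *Glut2* values.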
